A study of Mus musculus with 15 samples.

Results

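Zinc, copper and magnesium transporters and the metallothioneins were followed in mouse small-intestinal epithelium during 4 days of RANKL treatment. The genes were taken by symbol: every Slc30a, Slc39a, Slc31a and Slc41a gene on the array, with Atp7a, Atp7b and Mt1 to Mt4. This gave 35 genes of the 19938 measured: 10 zinc exporters, 14 zinc importers, 4 copper transporters, 3 magnesium transporters and 4 metallothioneins. The iron transporters Slc40a1 and Slc11a2 were not counted among them.

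The series has 5 groups of 3 Affymetrix arrays each. All mice were wild-type BALB/c of 10 weeks. One group received no RANKL, and the others received RANKL for 1, 2, 3 or 4 days. RANKL is the TNF-family cytokine that drives M cell formation, and it was given into the peritoneum 2 times a day as a GST fusion protein. Epithelium was loosened from the small intestine in 30 mM EDTA for 10 min and peeled off. None of the groups had injections of vehicle or of GST without RANKL, so injection, GST and RANKL cannot be told apart. Whether arrays of the same group stand for different animals is stated nowhere, and the p-values then reflect only sample-to-sample spread, which may be technical. In such bulk RNA, fewer cells of a type and less RNA per cell cannot be told apart.

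Zinc enters the cytosol through Slc39a (ZIP) proteins and leaves it, for the outside or for vesicles, through Slc30a (ZnT) proteins. Metallothioneins are small cysteine-rich proteins that hold zinc and copper, and the metal-sensing factor MTF1 switches on their genes and Slc30a1 when zinc is plentiful. The small intestine is where dietary zinc, copper and magnesium are absorbed, and its enterocytes carry different transporters on the lumen side and the blood side.

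Depth on arrays is given by intensity, and the median per array ran from 147 to 167. RANKL day 1 replicate 2 had the highest median and the narrowest interquartile range of log2 values (1.95), and the day 1 arrays lay farther from their group mean than those of days 2 to 4 (root mean square 0.144 to 0.221 against 0.0971 to 0.138). All levels are quantile-normalized log2 intensities, and all differences are RANKL minus control on that scale with their standard error (SE) from limma. Of the Y chromosome, 3 genes were measured and read 4.88 to 5.50, while Xist was at least 11.93 on every array. That range gives a rough background. None of the 35 genes reached down into it, which does not show that each is expressed, since each probe set has its own response. The dimmest were the insulin-granule zinc transporter Slc30a8 (5.80 to 6.06), Slc39a12 (6.18 to 6.46) and Mt4 (6.49 to 6.71). The markers of M cells, the cell type RANKL is known to induce, were called higher for 10, 11, 10 and 9 of 11 genes on days 1 to 4. The enterocyte markers were bright in every group, with 12 genes summing to between 79643 and 105030. Of these, 1 was called higher on day 2 and 1 lower on day 3. Over the arrays, single genes ranged from steady, such as Anpep (13.93 to 14.02), to variable, such as Lct (8.07 to 12.03) and Fabp1 (8.30 to 11.81). Tuft cell markers were called higher for 0, 3, 5 and 7 of 9 genes on days 1 to 4, with a summed intensity of 867 to 936 in controls and 1513 to 1752 on day 4. Enteroendocrine markers were called higher for 0, 0, 1 and 4 of 12, with sums of 5133 to 6034 in controls and 8304 to 8950 on day 4. None of 9 intraepithelial lymphocyte markers was called, and their sums were 8258 to 10729 in controls and 5830 to 7763 on day 4. Of 9 stem and cycling cell markers, 1 was called higher on day 1 and none later. Their sums were 5634 to 6599 in controls, 9022 to 10271 on day 3 and 8031 to 9039 on day 4. No goblet cell marker of 8 was called, with sums of 64860 to 67505 in controls and 54635 to 60616 on day 2. The part of these cell types in the results below was not tested.

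Of the 35 genes, 6 were called on at least 1 day against control at a limma adjusted p under 0.05, and 29 on none. The zinc exporters Slc30a2 and Slc30a7 rose. The exporter Slc30a10, the zinc importer Slc39a5, the copper importer Slc31a1 and the magnesium transporter Slc41a3 fell. A single gene, Slc30a10, changed by 1 or more on the log2 scale. Neither the count over any day nor this one was made for all genes. The shares of all genes called on each day and by the F test are given below, but they are not the share called on any day. The heat map of changes shows the 35 genes by family.

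**Figure D1:**
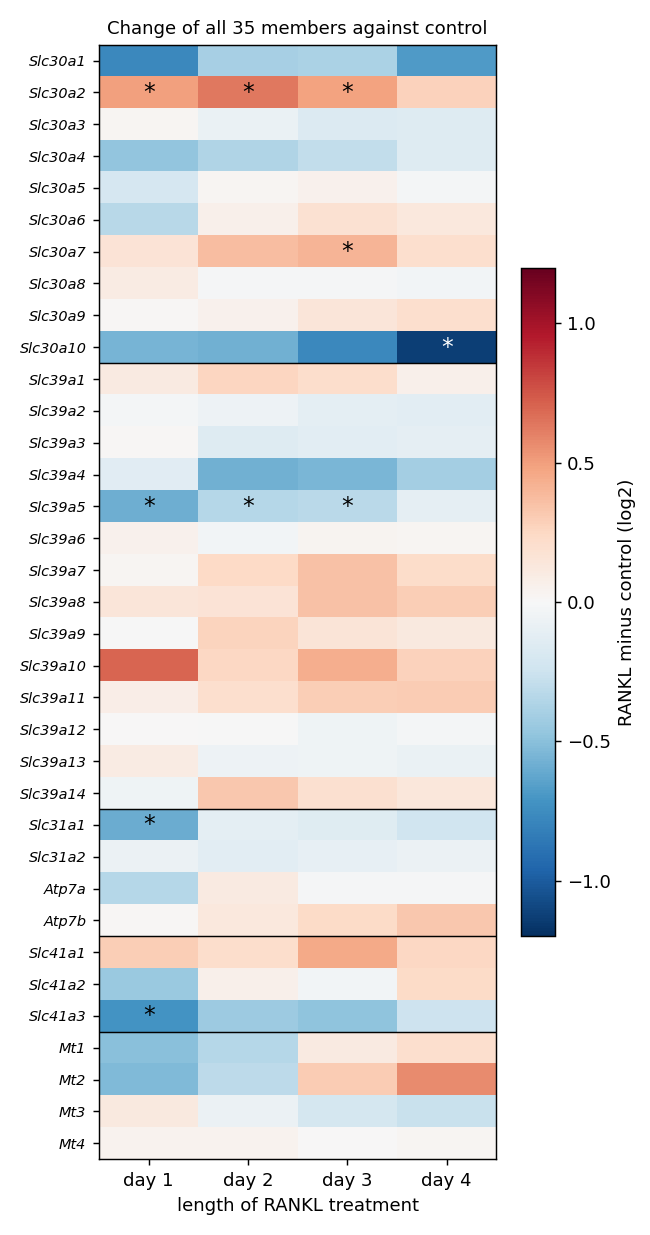
Change of each of the 35 genes on each RANKL day against control (colour, mean of 3 arrays minus mean of 3 control arrays, log2), grouped by black lines into Slc30a, Slc39a, copper, Slc41a and metallothionein genes; an asterisk marks a limma adjusted p under 0.05. Slc30a2 is red and Slc39a5 blue with asterisks on days 1 to 3, and the darkest cell is Slc30a10 on day 4 (-1.13).

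On day 1, 1 of 35 genes was called higher and 3 lower, beside 2.00% and 1.94% of all genes. On day 2 the counts were 1 and 1, beside 1.52% and 1.05%. On day 3 they were 2 and 1, beside 1.72% and 1.24%. On day 4 they were 0 and 1, beside 0.818% and 0.0903%. No gene of the 35 was called higher on day 4 by limma, while 7 were higher at an unadjusted p under 0.05, beside 1450 of all 19938 genes. The moderated F test over the 4 days called 4 genes, beside 3.60% of all genes: Slc39a5 (adjusted p = 0.00553), Slc30a2 (0.0406), Slc41a3 (0.0422) and Slc30a10 (0.0453). Single calls decide these shares. At an unadjusted p under 0.05 the counts were 12, 11, 11 and 10 of 35 on days 1 to 4 (34.3%, 31.4%, 31.4% and 28.6%), beside 14.9%, 11.9%, 16.2% and 9.66% of all genes. These shares set mostly brighter genes beside all genes, since 32 of the 35 remain when the dimmest 40% of genes are left out. The part of brightness in the shares was not tested. The changes went both ways, and the median of the 35 genes was 0.01, -0.01, 0.01 and 0.02 on the 4 days, beside -0.01, -0.02, -0.01 and 0.01 over all genes. The 4 comparisons share the 3 control arrays.

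Among the zinc exporters, the clearest rise was in Slc30a2 (probe set 10508961), which encodes ZnT2, the transporter that loads zinc into secretory vesicles and is known from Paneth cells and mammary gland. Its control arrays read 9.09, 9.31 and 9.38. The day 1 arrays read 9.61, 9.65 and 9.99, those of day 2 9.81, 9.81 and 10.06, and those of day 3 9.74, 9.73 and 9.76. On day 4 the values were 9.43, 9.76 and 9.43. All 12 RANKL arrays lay above all 3 controls, with the highest values on day 2 and the closest to control on day 4. The differences were 0.49 ± 0.12 on day 1 (SE, n = 3 arrays per group; 1.40-fold, adjusted p = 0.0376), 0.63 ± 0.12 on day 2 (1.55-fold, 0.0106) and 0.48 ± 0.12 on day 3 (1.40-fold, 0.0482). The day 4 difference was 0.28 ± 0.12 (0.475). The adjusted p on day 1 passed 0.05 without any 1 of control replicates 1 to 3, day 1 replicate 3, day 2 replicates 1 and 2 and day 3 replicates 1 to 3 (0.0502 to 0.135), and on day 2 without control replicate 1 (0.0552). On day 3 it did so without any 1 of control replicates 1 to 3, day 2 replicates 1 and 2, day 3 replicates 1 to 3 and day 4 replicates 1 and 3 (0.0566 to 0.161).

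Paneth cell markers were read beside Slc30a2. Of 11 listed, 8 were measured, and their summed intensity was 30643 to 36396 in controls, 28108 to 34694 on day 1, 20032 to 30169 on day 2, 29110 to 31174 on day 3 and 30757 to 33917 on day 4. None of them was called higher on any day, and Lyz1, the Paneth cell lysozyme, was called lower on day 2 (-0.44, adjusted p = 0.0463). None of the 8 reached down into the range of the Y chromosome genes. The summed level on day 2, where Slc30a2 was highest, was below that of all 3 controls. Goblet cell marker sums on day 2 were also below those of all 3 controls.

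Slc30a7 (probe set 10501593) encodes ZnT7, which moves zinc into the early secretory pathway. Its controls read 9.48, 9.61 and 9.63. The values were 9.68, 9.67 and 9.87 on day 1, 9.96, 9.85 and 10.02 on day 2, 9.92, 9.89 and 10.14 on day 3 and 9.66, 9.91 and 9.76 on day 4. Every RANKL array lay above the highest control. The difference was called on day 3 (0.41 ± 0.09, 1.33-fold, adjusted p = 0.0294), fell short on day 2 (0.37 ± 0.09, 0.0518), and was 0.16 on day 1 (0.469) and 0.20 on day 4 (0.514). The day 3 call ended without any 1 of the 3 control arrays or day 3 replicate 3 (0.0654 to 0.145). The day 2 difference was called without any 1 of day 1 replicates 2 and 3, day 3 replicate 3 and day 4 replicate 2 (0.0423 to 0.0485).

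Slc30a10 (probe set 10352548) encodes ZnT10, which despite its family name is known above all as a manganese exporter. Controls read 8.68, 9.37 and 9.42, so control replicate 1 lay well below the other two. Day 1 arrays read 8.13, 8.74 and 8.94, day 2 arrays 8.52, 8.48 and 8.74, day 3 arrays 8.26, 8.39 and 8.50, and day 4 arrays 7.98, 7.92 and 8.17. Day 1 and day 2 overlapped the controls, while days 3 and 4 lay wholly below them. The difference was -0.56 ± 0.21 on day 1 (adjusted p = 0.187), -0.58 on day 2 (0.213), -0.78 on day 3 (0.0611) and -1.13 ± 0.21 on day 4, a 2.19-fold lower level (0.0164). Day 4 differed from day 1 by -0.58 ± 0.21 (0.202). The day 4 call ended without any 1 of control replicates 2 and 3 and day 4 replicates 1 and 2 (0.0723 to 0.0998). Without control replicate 1 the earlier days were called too, at -0.79 on day 1 (0.0394), -0.82 on day 2 (0.0472) and -1.02 on day 3 (0.0146). The day 3 difference was also called without day 1 replicate 1 (0.0247) or day 1 replicate 2 (0.0454).

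The RefSeq promoter of Slc30a10 on the forward strand, chr1:185454598-185454847 in GRCm38.p6 and ending at the base before the transcript start, is shown because it held the most matches to the metal response element core among the called genes. The core was searched as TGCACNC and TGCGCNC on both strands, which is a short motif recognised by MTF1. Capitals mark the matches, and the first run of capitals joins a pair of overlapping ones on opposite strands. Counted as a single site, that pair would leave Slc30a10 level with Slc30a2.
Slc30a10: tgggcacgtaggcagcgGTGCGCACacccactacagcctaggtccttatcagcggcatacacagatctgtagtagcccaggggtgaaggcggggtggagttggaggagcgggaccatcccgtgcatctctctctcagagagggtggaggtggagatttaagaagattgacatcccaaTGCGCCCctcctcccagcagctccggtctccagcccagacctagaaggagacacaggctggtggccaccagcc
In windows of 300 bases (250 before to 50 after a transcript start), 25.7% of 32851 windows held at least 1 match, 7.11% at least 2 and 1.97% at least 3. Windows were read for 31 of the 35 genes, and 21 of these (67.7%) had a match in some window, beside 28.2% of 27025 genes. Any windows of the 35 genes on a single chromosome were left out, while the share over all genes was not filtered by chromosome. The 27025 genes were not matched to the 35 by gene type or base content. The 21 include the metallothioneins and Slc30a1, and why the 2 shares differ was not tested. Of the 6 called genes, 4 had one: Slc30a10 (3 matches), Slc30a2 (2), Slc39a5 (1) and Slc41a3 (1). The windows of Slc30a7 and Slc31a1 held none of these letters. A match describes the sequence and does not show that a factor binds there.

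The other exporters were not called. Slc30a1 (probe set 10352777), the plasma membrane exporter ZnT1, read 9.26, 9.36 and 9.59 in controls. It read 8.14, 8.65 and 9.11 on day 1, 8.88, 8.79 and 9.36 on day 2, 9.06, 8.61 and 9.40 on day 3 and 8.37, 8.81 and 9.001 on day 4. Days 1 and 4 lay wholly below the controls but were widely spread. The differences were -0.77 ± 0.25 (adjusted p = 0.126), -0.40 (0.635), -0.38 (0.523) and -0.68 ± 0.25 (0.372), and without day 1 replicate 3 the day 1 difference was -1.01 (0.0497). Slc30a4 (ZnT4, a vesicular exporter) differed by -0.47 ± 0.16 on day 1 (0.142) and -0.16 on day 4 (0.812). With a replicate block in the limma fit, Slc30a1 (0.0147) and Slc30a4 (0.0233) were called lower on day 1, though no label says that the numbers pair the arrays. Slc30a5 (ZnT5, of the secretory pathway) differed by between -0.20 and 0.05. The remaining exporters, Slc30a3, Slc30a6, Slc30a8 and Slc30a9, differed by between -0.33 and 0.20.

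Among the zinc importers, only Slc39a5 was called. Slc39a5 (probe set 10373374) encodes ZIP5, which sits on the blood-facing side of enterocytes and takes zinc from the circulation. Controls read 11.70, 11.60 and 11.62. Day 1 arrays read 10.92, 11.06 and 11.18, day 2 arrays 11.37, 11.19 and 11.33, day 3 arrays 11.37, 11.17 and 11.39, and day 4 arrays 11.54, 11.52 and 11.53. All 12 RANKL arrays lay below all 3 controls, with day 1 lowest and day 4 closest. The difference was -0.59 ± 0.08 on day 1, a 1.50-fold lower level (adjusted p = 9.17e-04), -0.34 ± 0.08 on day 2 (1.26-fold lower, 0.0450) and -0.33 ± 0.08 on day 3 (1.25-fold lower, 0.0485). On day 4 it was -0.11 ± 0.08 (0.757). Day 4 was higher than day 1 by 0.48 ± 0.08 (1.39-fold, 0.0128), with no overlap between their arrays, and this call ended without day 4 replicate 1 (0.0695). It was the one gene of the 35 called between those days, beside 1.04% of all genes higher and 0.276% lower. The day 1 call held without each array in turn. The day 2 call ended without any 1 of control replicates 1 to 3, day 2 replicates 1 to 3, day 3 replicates 1 and 3 and day 4 replicates 1 to 3 (0.0532 to 0.218). The day 3 call ended without any 1 of control replicates 1 to 3 or of the replicates of days 2, 3 and 4 (0.0526 to 0.169).

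The sequence before a Slc39a5 transcript start, chr10:128401277-128401474 in GRCm38.p6, printed 5′ to 3′ on the reverse strand and ending some way before that start, where the RefSeq span of the gene begins, is shown because Slc39a5 had the smallest adjusted p of the 35 genes. Its single match to the metal response element core is in capitals.
Slc39a5: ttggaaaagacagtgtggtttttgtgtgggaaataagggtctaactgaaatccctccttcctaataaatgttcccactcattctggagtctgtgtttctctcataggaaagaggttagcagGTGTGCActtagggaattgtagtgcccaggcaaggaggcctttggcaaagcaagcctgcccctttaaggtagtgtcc
A second Slc39a5 window in the RefSeq table held no match.

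Slc39a4 (probe set 10430006) encodes ZIP4, the importer on the lumen side through which dietary zinc is absorbed. Controls read 11.99, 12.04 and 12.11. Day 1 arrays read 11.70, 11.86 and 12.16, day 2 arrays 11.52, 11.38 and 11.51, day 3 arrays 11.62, 11.56 and 11.33, and day 4 arrays 11.63, 11.20 and 12.08. Days 2 and 3 lay wholly below the controls, and days 1 and 4 overlapped them. The differences were -0.14 (adjusted p = 0.819), -0.58 ± 0.17 (0.124), -0.54 ± 0.17 (0.121) and -0.41 (0.466). Without day 4 replicate 2 or day 4 replicate 3, which were the lowest and highest arrays of that day, the day 2 difference was called (0.0377 and 0.0355) and so was that of day 3 (0.0479 and 0.0469). With only the compared groups in the fit, both were called as well (0.00896 on day 2 and 0.0288 on day 3).

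ZIP8 and ZIP14, which carry manganese and iron as well as zinc, were not called. Slc39a8 (ZIP8) differed by 0.15, 0.17, 0.35 and 0.30 on days 1 to 4 (adjusted p from 0.169 to 0.724). Slc39a14 (ZIP14) differed by -0.05, 0.33, 0.19 and 0.14, with its day 2 arrays at 10.38, 10.29 and 10.40 above controls at 10.02, 9.98 and 10.10 (adjusted p = 0.127). That day 2 difference was called without day 1 replicate 1 (0.0305). The remaining 10 importers differed by between -0.15 and 0.70. The upper end was Slc39a10, named after its values were seen, with day 1 arrays at 8.07, 7.45 and 8.49 beside controls at 7.33, 7.28 and 7.31 (0.70 ± 0.19, 0.0559). Day 1 replicate 2, the array that stands apart, was the lowest of those 3.

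**Figure D2:**
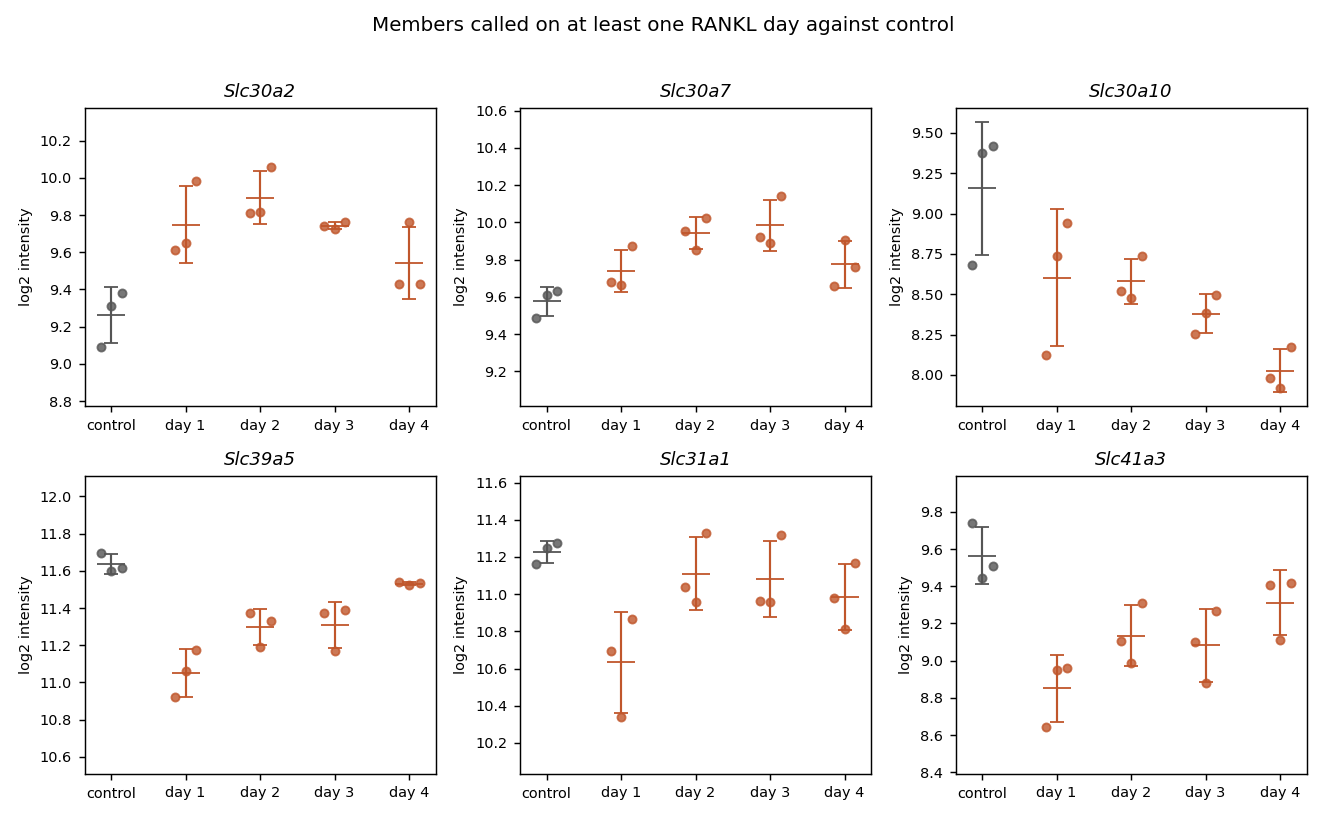
Normalized log2 intensity of the 6 called genes on each array (points), by group, with the mean and SD of 3 arrays (horizontal marks and bars). Slc30a2 and Slc30a7 lie above the controls on every RANKL array, Slc39a5 and Slc41a3 lie below them on every RANKL array, and Slc31a1 is apart from control on day 1 only.

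Of the copper genes, Slc31a1 alone was called. Slc31a1 (probe set 10505276) encodes CTR1, the high-affinity copper importer. Controls read 11.16, 11.25 and 11.28. Day 1 arrays read 10.69, 10.34 and 10.87, day 2 arrays 11.04, 10.96 and 11.33, day 3 arrays 10.96, 10.96 and 11.32, and day 4 arrays 10.98, 10.81 and 11.17. Day 1 lay wholly below the controls and the other days overlapped them. The difference was -0.59 ± 0.14 on day 1, a 1.51-fold lower level (adjusted p = 0.0350), then -0.12 (0.867), -0.15 (0.706) and -0.24 (0.661). Day 4 against day 1 differed by 0.35 ± 0.14 (0.264), so a return towards control was not shown. The day 1 call ended without any 1 of control replicates 1 to 3, day 1 replicates 1 and 2, day 2 replicate 1 and day 4 replicate 1 (0.0507 to 0.121), and without day 1 replicate 2 the difference was -0.44 (0.0865). Its low-affinity relative Slc31a2 differed by between -0.13 and -0.07. The copper-exporting ATPases were not called. Atp7a, which sends copper out of the enterocyte towards the blood, differed by -0.34 ± 0.14 on day 1 (0.261) and by between -0.02 and 0.11 on the later days. Atp7b, known for copper export from liver, differed by 0.01, 0.13, 0.23 and 0.32 (0.460 to 0.989).

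Of the magnesium transporters, Slc41a3 fell. Slc41a3 (probe set 10540059) belongs to the family of Slc41 magnesium carriers. Controls read 9.74, 9.44 and 9.51. Day 1 arrays read 8.64, 8.95 and 8.96, day 2 arrays 9.11, 8.99 and 9.31, day 3 arrays 9.10, 8.88 and 9.27, and day 4 arrays 9.41, 9.11 and 9.42. All 12 RANKL arrays lay below the lowest control, most of all on day 1. The difference was -0.71 ± 0.13 on day 1, a 1.64-fold lower level (adjusted p = 0.00724), then -0.43 (0.128), -0.48 (0.0695) and -0.25 (0.595). The day 1 call held without each array in turn, and day 4 against day 1 differed by 0.46 ± 0.13 (0.116). Slc41a1, a plasma membrane magnesium carrier, differed the other way by 0.29, 0.22, 0.46 and 0.25 (0.185 to 0.737). Without day 1 replicate 2 the Slc41a1 difference was called on day 1 (0.52, 0.0439) and day 3 (0.46, 0.0409). Slc41a2 differed by -0.44 on day 1 (0.290) and by 0.23 on day 4.

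Other magnesium genes were read from a list of 17, all measured. On day 1, 2 were called higher and 1 lower, on day 3 1 was called lower, and on days 2 and 4 none was called. Trpm6, the magnesium channel of gut and kidney epithelium, rose by 1.22 ± 0.20 on day 1 (2.33-fold, adjusted p = 0.00281) and was 0.77 higher on day 2 (0.0565). The Trpm6 call on day 1 held without each array in turn. Cnnm4, which helps magnesium leave the blood-facing side of enterocytes, fell by 0.45 on day 1 (0.00552) and by 0.33 on day 3 (0.0421). The Cnnm4 call on day 1 held without each array in turn, and that on day 3 ended without any 1 of control replicates 1 to 3, day 2 replicate 1, day 3 replicates 2 and 3 and day 4 replicates 1 to 3 (0.0507 to 0.153). Nipal1, a magnesium transporter of the NIPA family, rose by 0.44 on day 1 (0.0383), a call that ended without any 1 of control replicates 1 to 3, day 1 replicates 1 and 3, day 2 replicate 1 and day 4 replicate 2 (0.0544 to 0.127). The Nipal1 call also ended with deposited values (0.276), median centring (0.482), each probe set alone (0.0530), unmoderated statistics (0.0783) or only the compared groups in the fit (0.216). Cnnm4 on day 1 was not called with only the compared groups (0.0676), and its day 3 call also ended in 6 settings of this kind (0.0512 to 0.301).

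None of the 4 metallothioneins was called by limma against control on any day. Mt1 alone passed an unadjusted p under 0.05, on day 1. In the RefSeq order the genes lie side by side as Mt4, Mt3, Mt2 and Mt1, with the non-coding Gm39227 between Mt3 and Mt2. Mt1 (probe set 10574027) read 10.90, 10.78 and 11.16 in controls, 10.92, 10.03 and 10.37 on day 1, 10.64, 10.76 and 10.40 on day 2, 11.19, 11.08 and 10.88 on day 3 and 11.09, 11.09 and 11.25 on day 4. Mt2 (probe set 10574023) read 11.65, 11.75 and 11.99 in controls, 12.24, 10.72 and 10.85 on day 1, 11.42, 11.96 and 11.06 on day 2, 12.11, 12.41 and 11.77 on day 3 and 12.21, 12.34 and 12.54 on day 4. On day 1, replicate 1 stood above the other arrays of its group for both genes. The day 4 arrays of Mt2 lay above all controls, and those of Mt1 overlapped them.

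The Mt1 differences against control were -0.50 ± 0.18 (adjusted p = 0.173), -0.34 (0.523), 0.11 (0.851) and 0.20 (0.793). Those of Mt2 were -0.53 ± 0.33 (0.540), -0.32 (0.835), 0.30 (0.744) and 0.57 ± 0.33 (0.650). Day 4 against day 1 differed by 0.70 ± 0.18 for Mt1 (0.0807) and 1.10 ± 0.33 for Mt2 (0.134), neither of them called. Without day 1 replicate 1, the day 1 differences were -0.75 for Mt1 (0.0155) and -1.02 for Mt2 (0.0353), and the day 4 against day 1 differences were 0.94 (0.0127) and 1.58 (0.00996). With array weights, Mt1 was called on day 1 (-0.61, 0.0121), and both genes were called on day 4 against day 1 (0.74 for Mt1, 0.00145, and 1.40 for Mt2, 0.00211). Without day 1 replicate 2 the day 1 differences shrank against control to -0.30 (0.361) and -0.25 (0.741). Mt3, known from brain, differed by between -0.27 and 0.12, and Mt4, known from stratified epithelium, by between 0.01 and 0.05.

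**Figure D3:**
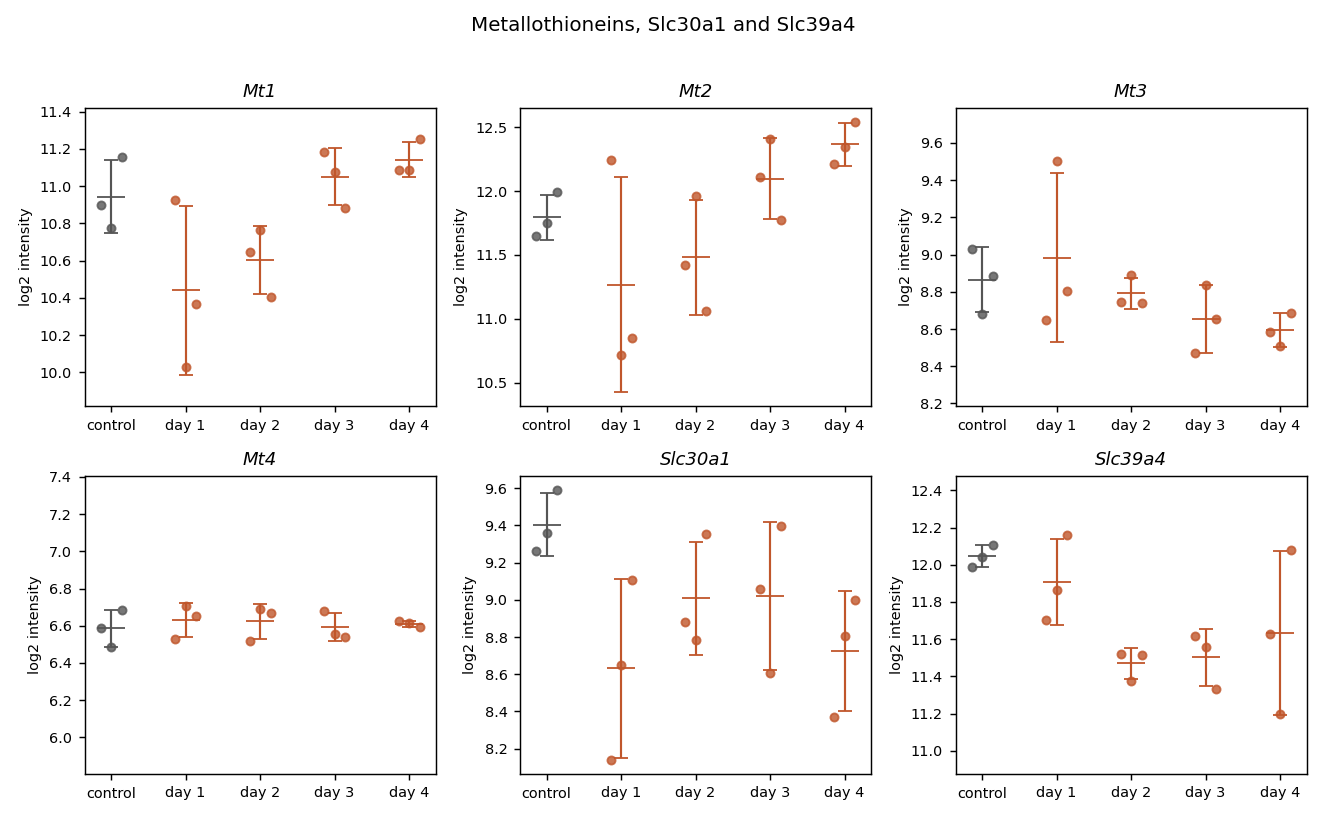
Normalized log2 intensity of the 4 metallothioneins, the zinc exporter gene Slc30a1 and the zinc importer gene Slc39a4 on each array (points), by group, with the mean and SD of 3 arrays. The day 1 point at 12.24 for Mt2 and 10.92 for Mt1 belong to the same array, Mt4 spans 6.49 to 6.71 over all 15 arrays, and none of the 6 genes was called against control.

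Mt1 and Mt2 went together over the arrays. Over 15 arrays Pearson's r was 0.935 (permutation p = 1e-05, the smallest that 100000 permutations can give; 6e-05 adjusted over 6 relations) and Spearman's rho 0.857 (0.00018; adjusted 0.00054). Without the 2 arrays farthest from the median of Mt1, r was 0.878. As deviations from the group means, r was 0.897 (permutation p = 4e-05, adjusted 0.00012) and rho 0.846 (0.00014; adjusted 0.00054), and 0.768 without the 2 farthest arrays. The 2 genes are close paralogs, and the part of shared probe signal in this was not tested. For Slc30a1, which MTF1 also targets, r with Mt1 was -0.0174 (permutation p = 0.951, adjusted 0.951). As deviations from the group means, r with Mt1 was -0.412 (0.131, adjusted 0.196), and -0.245 without the 2 farthest arrays. The r of Slc30a1 with Mt2 was -0.274 (0.325, adjusted 0.390). As deviations from the group means it was -0.626 (0.0108, adjusted 0.0216, rho -0.511, adjusted 0.108), and -0.415 without the 2 farthest arrays. No batch is named in the labels, so none of these was recomputed within batches. The permutations moved values freely over all 15 arrays and did not keep the groups. Deviations from group means have fewer free values than arrays and an unequal spread between groups, so their permutation p-values may be too small. Pooled values also carry the differences between groups.

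The sequence before the Mt2 transcript start on the forward strand, chr8:94172368-94172617 in GRCm38.p6, is shown because its window held the most matches of the 31 genes read, 4, with Mt1, Slc30a4 and Slc30a10 at 3. Of the 4 in Mt2, 3 lie before the start and are in capitals.
Mt2: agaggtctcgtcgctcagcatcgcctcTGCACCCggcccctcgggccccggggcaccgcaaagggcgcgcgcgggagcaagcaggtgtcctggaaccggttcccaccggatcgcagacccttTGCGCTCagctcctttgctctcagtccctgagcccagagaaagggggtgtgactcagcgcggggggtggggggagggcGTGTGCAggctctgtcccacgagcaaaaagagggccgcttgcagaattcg
The windows of Slc30a1, Slc30a2 and Atp7a held 2 matches each. The number of matches did not sort the genes by their calls: Mt2, with 4, was not called, and Slc30a7, with none, rose.

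Between successive days, none of the 35 genes was called. The share of all genes called was 0.201% for day 2 against day 1, 0% for day 3 against day 2 and 0.0150% for day 4 against day 3. At an unadjusted p under 0.05 in limma, 10, 1 and 2 of the 35 genes passed in these comparisons (28.6%, 2.86% and 5.71%), beside 6.97%, 4.82% and 5.46% of all genes. With weights per array, 1 gene was called higher and 2 lower on day 2 against day 1, while the calls over all genes went from 40 to 711. For day 4 against day 1 the unadjusted count was 14 of 35 (40%), with 11 higher and 3 lower, beside 15.8% of all genes. These shares too set mostly brighter genes beside all genes, dim ones included.

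Among copper chaperones and assembly genes, 17 of 19 listed were measured, none was called higher on any day, and 2 were called lower on day 2 and 1 on day 3. Ccs, which hands copper to the enzyme SOD1, fell by 0.37 on day 2 (adjusted p = 0.0197) and by 0.33 on day 3 (0.0338). Steap3, a metal reductase, fell by 0.43 on day 2 (0.0302). The Ccs call on day 2 ended without any 1 of control replicates 1 and 3 and day 2 replicates 1 and 2 (0.0521 to 0.110), and that on day 3 without any 1 of control replicates 1 and 3, day 3 replicates 1 to 3 and day 4 replicate 1 (0.0515 to 0.126). The Steap3 call ended without any 1 of the control replicates 1 to 3 and day 2 replicates 1 and 3 (0.0585 to 0.157).

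Among zinc-binding and metal-responsive genes, 19 of 20 listed were measured, and 2 were called higher and 1 lower on each of days 2 and 3, with none on days 1 and 4. Gclc, the first enzyme of glutathione synthesis and a gene that MTF1 can induce, rose by 1.10 ± 0.20 on day 2 (2.14-fold, adjusted p = 0.00863) and 1.01 on day 3 (0.0168). Car4, a zinc-dependent carbonic anhydrase of the cell surface, rose by 0.96 ± 0.16 on day 2 (0.00444) and 0.71 on day 3 (0.0309). Ndrg1, a stress-responsive gene, fell by 0.88 on day 2 (0.0114), and Mep1a, a zinc protease of the enterocyte brush border, fell by 0.99 on day 3 (0.0352). The Car4 call on day 2 held without each array in turn. The Gclc call on day 2 ended without control replicate 3 (0.0525), and that on day 3 without any 1 of control replicates 1 and 3 and day 3 replicates 2 and 3 (0.0509 to 0.0782). The Car4 call on day 3 ended without any 1 of control replicates 2 and 3 and day 3 replicates 2 and 3 (0.0635 to 0.151). The Ndrg1 call ended without any 1 of control replicates 1 and 3 and day 2 replicate 1 (0.0542 to 0.0678), and the Mep1a call without any 1 of control replicates 2 and 3, day 2 replicate 1, day 3 replicates 2 and 3 and day 4 replicate 1 (0.0514 to 0.131).

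Glucocorticoids are also known to switch on Mt1 and Mt2. Of 14 glucocorticoid-induced genes listed, 13 were measured and 1 was called, Nfkbia, the inhibitor of NF-kappaB that NF-kappaB itself induces. It rose by 0.94 on day 1 (adjusted p = 0.00109), 0.95 on day 2 (0.00131), 0.61 on day 3 (0.0269) and 0.63 on day 4 (0.0460). The calls on days 1 and 2 held without each array in turn. That on day 3 ended without any 1 of control replicates 1 and 2 and day 3 replicates 1 and 3 (0.0648 to 0.0925), and that on day 4 without any 1 of 9 arrays (0.0513 to 0.206), namely the 3 controls, day 1 replicate 3, day 2 replicates 1 and 3, day 3 replicate 3 and day 4 replicates 1 and 3. Among 7 genes for manganese and other divalent metals, all measured, the calls were those of the iron genes Slc40a1, lower on each day, and Tfrc, higher on days 2 to 4. The Slc40a1 call on day 1 and the Tfrc calls on days 2 and 3 held without each array in turn. Those of Slc40a1 on days 2 and 3 each ended without any 1 of the 3 controls, and on day 2 without day 2 replicate 1 or 2 and on day 3 without day 3 replicate 2 or 3 (0.0535 to 0.0941). The Slc40a1 call on day 4 ended without any 1 of the 3 controls, day 1 replicate 1, day 2 replicates 1 and 2, day 3 replicate 3 and day 4 replicates 1 and 2 (0.0521 to 0.210), and the Tfrc call on day 4 without control replicate 1 (0.0536) or day 4 replicate 2 (0.0570).

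Of the 10 calls against control, those of Slc39a5 on day 1 and Slc41a3 on day 1 held in all 26 settings tried. With median centring of the arrays as the only scaling, the calls of Slc30a2 on days 1 to 3, Slc30a7, Slc31a1 and Slc39a5 on days 2 and 3 ended (adjusted p from 0.0951 to 0.396), and with the deposited values unscaled they ended too (0.0535 to 0.222). With unmoderated statistics the calls of Slc30a2 on days 1 and 3, Slc30a7, Slc30a10, Slc31a1 and Slc39a5 on days 2 and 3 ended (0.0588 to 0.105). With only the compared groups in the fit, those of Slc30a2 on day 1, Slc30a7, Slc30a10, Slc31a1 and Slc39a5 on days 2 and 3 ended (0.0518 to 0.185). Testing each probe set alone ended those of Slc30a2 on days 1 and 3, Slc31a1 and Slc39a5 on days 2 and 3 (0.0526 to 0.0674). The trended prior ended those of Slc39a5 on days 2 and 3 (0.0676 and 0.0675). Array weights ended the Slc31a1 call (-0.41, 0.0793). Each of the 10 differences kept its sign in every setting. The plot of adjusted p-values by setting shows how near most of the calls lie to the threshold.

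Of the calls in the other metal lists and of Nfkbia, those of Trpm6 on day 1, Car4 on day 2 and Nfkbia on days 1 and 2 held in all 26 settings. Apart from single arrays, the Gclc call on day 2 held as well, and that on day 3 ended with unmoderated statistics (0.0632) or only the compared groups (0.0618). Ccs ended with deposited values or only the compared groups on days 2 and 3, and on day 3 with median centring or the trended prior too (0.0557 to 0.109). Steap3 ended with deposited values (0.0645) or unmoderated statistics (0.0646), and Ndrg1 with unmoderated statistics (0.0511). Car4 on day 3 ended with unmoderated statistics (0.0856) or only the compared groups (0.0713). Mep1a ended with median centring, each probe set alone, unmoderated statistics or only the compared groups (0.0534 to 0.105). Nfkbia ended on days 3 and 4 with unmoderated statistics or only the compared groups, and on day 4 with the offset of 16 or each probe set alone (0.0504 to 0.132). Unmoderated statistics ended the calls of Slc40a1 on days 2, 3 and 4 and of Tfrc on day 4 (0.0618 to 0.154), and that of Slc40a1 on day 4 also ended with each probe set alone, the trended prior or only the compared groups (0.0504 to 0.0737).

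**Figure D4:**
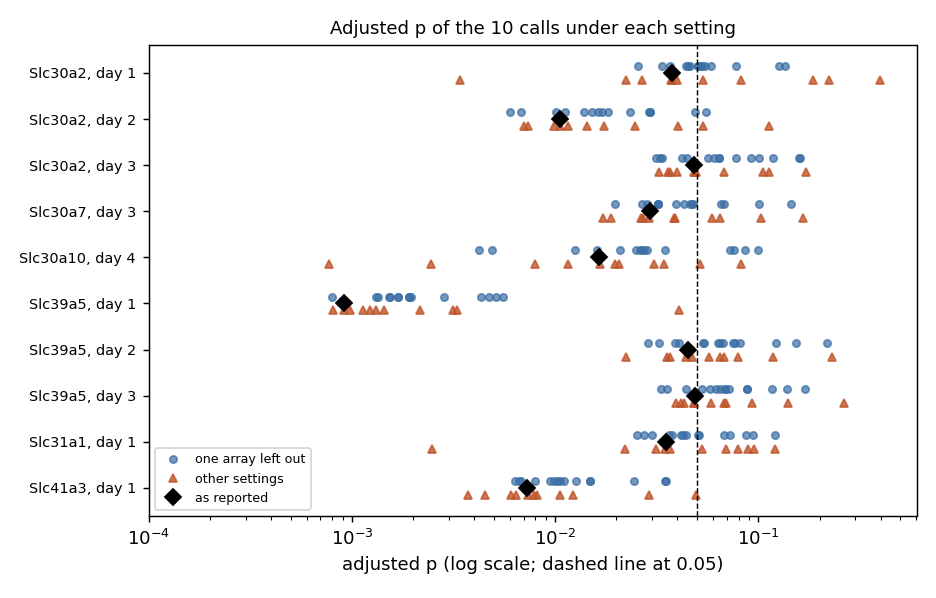
Adjusted p from limma (log axis, dashed line at 0.05) of the 10 calls against control, as reported (diamonds), with 1 array left out (circles, 15 settings) and under the other settings (triangles, 11). All points of Slc39a5 on day 1 and of Slc41a3 on day 1 lie left of the line, and the points of the other 8 calls fall on both sides.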

How the data were processed

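RNA on 15 Affymetrix arrays was measured, and the authors deposited linear intensities of 28853 probe sets (25.95 to 24106.7). How these were summarised and normalized is not given in the sources used here. The submitters' processing notes name the build mm9. Log2 values (pseudocount 0) were quantile normalized. Of the probe sets, 21789 had 1 gene symbol, and each of 19938 genes was represented by its brightest. No dim genes were removed. One limma model (3.58.1, R 4.3.3) with 5 group means was fitted to all arrays (10 residual and 3.49 prior degrees of freedom). P-values were two-sided and adjusted by Benjamini-Hochberg over all genes per contrast, with calls at 0.05. The fit was tested on simulated data. 3 arrays per group limit the precision. Called genes, a set of 16 transporters and metallothioneins, and up to 4 called genes per other list were named. Members and lists were chosen with earlier results of these data known. Promoter sequences are RefSeq's (GRCm38.p6). Results were recomputed with other scalings, 16 added before the log, no genes of the dimmest 40%, each probe set alone, other priors, array weights, a replicate block, fits of 2 groups and leaving out each array.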

Additional observations from a re-analysis of the deposited data

Results flagged for a closer look

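Slc39a5, the gene of the zinc importer ZIP5, stood apart because its difference from control was not the same on the first and last day of treatment. Its level on day 4 was 0.4795 higher than on day 1 (log2, adjusted p = 0.0128 in limma), with day 4 arrays at 11.54, 11.52 and 11.53 and day 1 arrays at 10.92, 11.06 and 11.18. The call ended without day 4 replicate 1 (0.0695) and when only these groups were fitted (0.139).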

How the results depend on the processing

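Of 11 calls of single genes, counting that between days 4 and 1, all kept their sign in the 26 settings run. Those of Slc39a5 on day 1 (adjusted p up to 0.0406) and Slc41a3 on day 1 (up to 0.0491) held in each, and the other 9 were lost in at least 1. Of 60 uncalled differences of named genes, 16 were called in some setting. Leaving out 1 array gave 0 to 3 genes called higher on day 1, 0 to 2 on day 2, 0 to 5 on day 3, and 0 to 1 lower on day 2, 0 to 2 on day 3 and 0 to 1 on day 4, with 0 to 3 higher and 0 to 1 lower on day 4 against day 1, and 1 to 5 by the F test. The calls over all genes, either direction, ranged from 445 to 1002, 283 to 717, 236 to 1188 and 95 to 336 on days 1 to 4. They ranged from 58 to 506 for day 4 against day 1, and from 431 to 1036 by the F test.

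Day 1 higher, 1 as reported, became 0 with median centring, each probe set alone, unmoderated statistics or 2 groups, 2 without dim genes and 3 with array weights. Day 1 lower, 3, became 6 with the replicate block, while the calls over all genes went from 785 to 1052. Day 2 higher, 1, became 0 with the values as deposited or median centring, and 2 with the offset of 16, without dim genes or with the replicate block. Day 2 lower, 1, became 0 with deposited values, median centring, each probe set alone, the trended prior or unmoderated statistics, and 2 with array weights. Day 3 higher, 2, became 0 with deposited values, median centring or unmoderated statistics, 1 with each probe set alone and 4 with array weights. Day 3 lower, 1, became 0 with deposited values, median centring, each probe set alone, unmoderated statistics or the trended prior, 2 with array weights and 3 without dim genes or with the block. Day 4 lower, 1, became 0 with unmoderated statistics or 2 groups. Array weights gave 1 higher and 2 lower on day 2 against day 1. Day 4 against day 1 had 2 higher with deposited values, 4 with median centring, 5 (and 4 lower) with array weights and 0 with 2 groups. Over all genes that comparison had 263 calls as reported, and 347, 584, 1389 and 4 in these settings. The F count of 4 became 2 with deposited values, 1 with each probe set alone or unmoderated statistics and 13 with array weights, beside 718 over all genes as reported and 598, 564, 342 and 2462 in these settings. It was not defined for 2 groups. The cause of these changes was not tested.

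Whether the replicate numbers pair the arrays is not settled: no label says so, and not every same-numbered pair correlated above 0.1. Deviations from the group means of same-numbered arrays correlated at -0.203 to 0.503 over 30 pairs, with 19 above 0.1. Their mean was 0.147, beside -0.0740 for arrays of other number and group, and 12 of 15 arrays correlated best with an array of their own number, a hint from the data that the numbers may be shared. With the replicate block, Slc30a1 (0.0147), Slc30a4 (0.0233) and Slc30a10 (0.0462) were also called on day 1, Slc30a7 on day 2 (0.0278), and Slc30a10 (0.0133) and Slc41a3 (0.0416) on day 3. All genes called against control on days 1 to 4 numbered 785, 513, 590 and 181. These became 480, 311, 257 and 169 with median centring, and 583, 383, 378 and 188 with deposited values. Array weights gave 1517, 930, 1322 and 307, and the replicate block 1052, 635, 712 and 216. Unmoderated statistics gave 540, 320, 324 and 107, and 2 groups 269, 455, 524 and 145. Without dim genes the calls were 851, 537, 661 and 174 of 11963 genes. Each probe set alone gave 661, 418, 474 and 138. The trended prior gave 689, 470, 542 and 172, and the offset of 16 gave 828, 518, 591 and 172. The settings for genes outside the 35 were added after seeing the data. With 3 arrays a group the median SE of a difference from control was 0.126, and the smallest called difference of the 35 genes was -0.33.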
